A study of Mus musculus with 91 samples.

Results

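The cells compared here were 58 of 91 single mouse bone marrow stromal cells, all with high Cxcl12 and placed on 2 sides by their Alpl and Adipoq levels. Levels were in CPM: a gene's count in a cell divided by that cell's total count, times 1000000, with no correction for gene length. A cell was kept where Cxcl12 reached 5000 CPM, which held for 61 cells. It went to the Alpl side where Alpl reached 50 CPM (24 cells), and to the Adipoq side where Alpl was under 50 CPM and Adipoq reached 50 CPM (34 cells). Of the other cells, 3 with Cxcl12 over its threshold had neither gene over its own, and 30 lay under the Cxcl12 threshold. The sides were thus chosen by measured values of these libraries, so all differences below are descriptions without a test.

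Each cell came from a C57BL/6 mouse; marrow released by crushing bones was stained, index-sorted into plates and made into 1 Smart-seq2 library per cell. All cells had been gated as negative for CD45, Ter119, CD41 and CD71, positive for a dye used against debris and positive for VCAM1, and most were gated further as CD61+ or CD61-. The labels name no animal, age or sex, and separate plates may hold cells of 1 mouse. Cells are not replicates, so the spread is given over cells and over the 4 plates that held cells of both sides, called CD61+ plates 1 and 2 and CD61- plates 1 and 2 after their titles. The Alpl side held 14 cells of the CD61+ gate and 10 of the CD61- gate. The Adipoq side held 8 cells of the CD61+ gate, 21 of the CD61- gate, 3 of a VCAM1+ gate without a CD61 split, and 2 cells of CD61- plate 2 whose gate label and title disagree and which were given no gate. Total counts ran from 824950 to 4991600 on the Alpl side (median 2221800) and from 507710 to 4004900 on the Adipoq side (median 1987500). The authors' number of genes per cell had medians of 4521 and 3964.

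Cxcl12-abundant reticular (CAR) cells are marrow stromal cells that make CXCL12 and stem cell factor, the retention and survival signals of blood stem and progenitor cells. Many of them carry adipocyte genes such as Adipoq, which encodes the hormone adiponectin, without being fat cells. Others carry Alpl, which encodes the tissue-nonspecific alkaline phosphatase that frees phosphate for bone mineral. The 2 kinds are often called adipo-CAR and osteo-CAR cells.

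The genes of the rule are protein-coding genes of GRCm38 (mm10, the build in the submitters' processing notes): Cxcl12 at chr6:117168535-117181367, Alpl at chr4:137741733-137796384 and Adipoq at chr16:23146536-23158028 in GENCODE vM21. Alpl ran from 78.1 to 4173 CPM on the Alpl side with a median of 1049. On the Adipoq side it was at 0 in 27 of 34 cells and reached at most 44.1 CPM. Adipoq ran from 581 to 7084 CPM on the Adipoq side with a median of 2864. Around the thresholds, the lowest Alpl value inside was 78.1 CPM against 44.1 just outside, the lowest Adipoq value inside was 581 against 22.3 outside, and the lowest Cxcl12 value inside was 5558 against 3876 outside. Cxcl12 itself overlapped over most of its range, with a median of 21519 CPM on the Alpl side (8396 to 37332) and 24765 on the Adipoq side (5558 to 36171).

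Of the 24 Alpl-side cells, 15 also had Adipoq at or over 50 CPM, and their Adipoq median was 3223 CPM (552 to 6658). The other 9 cells had Alpl without Adipoq, which was at 0 in 7 of them and reached at most 6.36 CPM. Alpl was higher in these 9 cells (868 to 4173 CPM, median 2569) than in most of the 15 cells with both genes (78.1 to 2779, median 489). So the members fell into 3 classes: Alpl only, both genes, and Adipoq only. Cxcl12 had a median of 17636 CPM (8396 to 23057) in the Alpl-only cells and 25094 (11233 to 37332) in the cells with both genes.

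**Figure D1:**
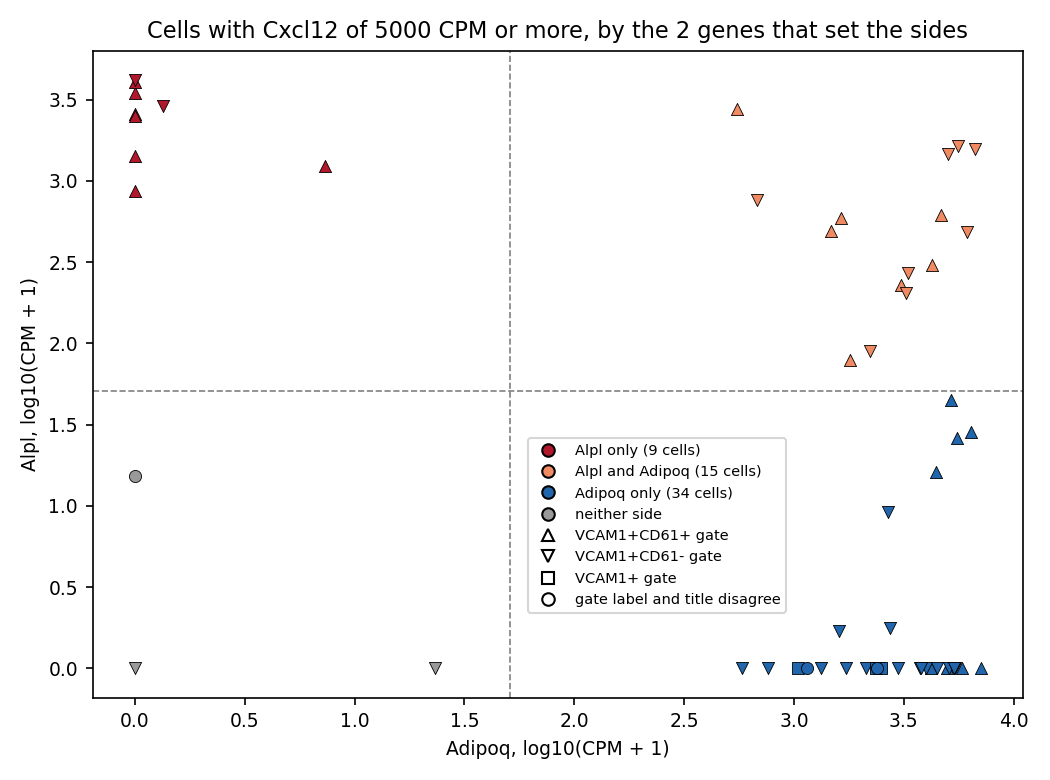
Alpl (y axis) against Adipoq (x axis) in each of the 61 cells with Cxcl12 of 5000 CPM or more, both as log10(CPM + 1). Colour is the class and shape the gate; dashed lines mark 50 CPM. The 9 Alpl-only cells lie in the upper left corner, the 15 cells with both genes in the upper right, and the 34 Adipoq-only cells along the lower right edge.

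CD61 is the integrin beta-3 chain encoded by Itgb3, and its gate was more frequent on the Alpl side. Among members sorted through the 2 CD61 gates, 58.3% of Alpl-side cells (14 of 24, Clopper-Pearson 95% interval 36.6% to 77.9%) and 27.6% of Adipoq-side cells (8 of 29, 12.7% to 47.2%) came from the CD61+ gate. The intervals overlap and cover counting error only. The share was 7 of 9 among Alpl-only cells and 7 of 15 among cells with both genes. Read the other way, Alpl-side cells made up 63.6% of the members on each of the CD61+ plates (7 of 11 and 7 of 11). They made up 30.0% (6 of 20) and 30.8% (4 of 13) on the CD61- plates. Both plates of a gate thus gave nearly the same share, although each rests on 20 cells or fewer. Itgb3 mRNA was counted in only 3 cells of each side, so the gate's protein could not be followed in the counts.

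Of 12931 genes with at least 10 counts and 5 cells with a count among the members, 479 were called higher on the Alpl side, which is 3.70% of the genes measured. A further 470 were called lower, which is 3.63%. A call needed at least a 2-fold difference both in the CPM of the summed counts and in the mean CPM over cells, and the same direction in all 4 plates. The median log2 ratio of all measured genes was 0.03, and -0.20, -0.25, 0.49 and 0.18 on CD61- plates 1 and 2 and CD61+ plates 1 and 2. Since the rule used these same cells, the counts of calls say only how many genes met the rule. In simulated counts, 2.50% of genes with no difference put in were called higher and 3.12% lower, so a call alone does not show a difference. The simulated spread was taken around the mean of both sides together, and no plate or gate effects were put in. These shares are therefore only a rough guide. The genes named below were picked by the difference in mean log2(CPM + 10), 14 in each direction.

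The 14 genes named as higher were Olfml3, Wif1, Spp1, Comp, Limch1, Angpt4, Cldn10, Mmp13, Smad6, Pth1r, A2m, Rtf1, Ccn2 and Dlx5. Wif1, which encodes the secreted Wnt inhibitory factor (chr10:121033960-121100650), was counted in 21 of 24 Alpl-side cells and 15 of 34 Adipoq-side cells. Its level had a median of 718 CPM on the Alpl side (0 to 4208) against 0 on the Adipoq side (0 to 618), and 13 Alpl-side cells lay above every Adipoq-side cell. In summed counts it was 17.1-fold higher on the Alpl side (95% counting interval 16.5 to 17.7). The summed levels were 638 against 47.7 CPM on CD61- plate 1, 841 against 45.6 on CD61- plate 2, 1042 against 50.1 on CD61+ plate 1 and 1219 against 193 on CD61+ plate 2. The common direction over plates was required by the call rule. Intervals of this kind treat reads as independent molecules and leave out the spread over cells.

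Limch1 and Olfml3 had a similar pattern. Limch1, which encodes an actomyosin-binding protein (chr5:66745827-67057158), had a median of 749 CPM (0 to 3203) on the Alpl side and 19.2 (0 to 699) on the Adipoq side. Its summed level was 7.68-fold higher. Olfml3, a secreted olfactomedin-like protein of the matrix (chr3:103722222-103738001), was the only one of these 14 genes that every Alpl-side cell had above the Adipoq-side median. It ran from 86.5 to 1376 CPM with a median of 636, against 0 to 363 with a median of 0.548. As many as 17 Alpl-side cells exceeded all 34 Adipoq-side cells, and the log2 ratio of the summed levels was 3.32. Both genes were also high in the cells that kept Adipoq: Limch1 had a median of 602 CPM and Olfml3 of 529 in the 15 cells with both genes, against 1907 and 954 in the 9 cells with Alpl only.

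Comp was uneven within the Alpl side. It encodes cartilage oligomeric matrix protein (chr8:70373558-70382066), which tendon, cartilage and bone-forming cells secrete. Every Alpl-only cell had it (128 to 5340 CPM, median 3269), while the cells with both genes ran from 0 to 4522 with a median of 0.794. On the Adipoq side its median was 0 and its highest value 310 CPM. Summed over the sides, Comp was 54.9-fold higher on the Alpl side.

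Of the other genes called higher, Angpt4, an angiopoietin that binds the receptor TIE2, was counted in 18 of 24 Alpl-side cells and in 3 of 34 Adipoq-side cells. Its median was 213 CPM (0 to 2694) against 0 (0 to 191). The summed ratio was 170-fold, and 2624-fold without the 1 Adipoq-side cell that held 93.6% of that side's counts. Cldn10, a tight junction claudin, had a median of 200 CPM (0 to 1011) against 0 (0 to 361), 9.37-fold higher in sum and 14.4-fold without 1 Adipoq-side cell. A2m, a secreted protease inhibitor, was counted in 13 cells against 2, and its ratio of 19.4 became 129 without 1 Adipoq-side cell. For these 3 genes a single cell set much of the low side, so the count of cells carries the comparison better than the fold.

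Smad6, the inhibitor of BMP signalling inside the cell, had a median of 156 CPM (0 to 533) on the Alpl side and 0 (0 to 223) on the Adipoq side. Ccn2, a secreted matricellular protein, had medians of 219 (0 to 727) and 0 CPM (0 to 375). Rtf1, a transcription elongation factor, had medians of 211 (0 to 985) and 0 CPM (0 to 616). Their summed levels were 5.80-fold, 4.30-fold and 3.20-fold higher. The ranges overlapped for all 3, and 5, 8 and 4 Alpl-side cells respectively lay above every Adipoq-side cell.

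**Figure D2:**
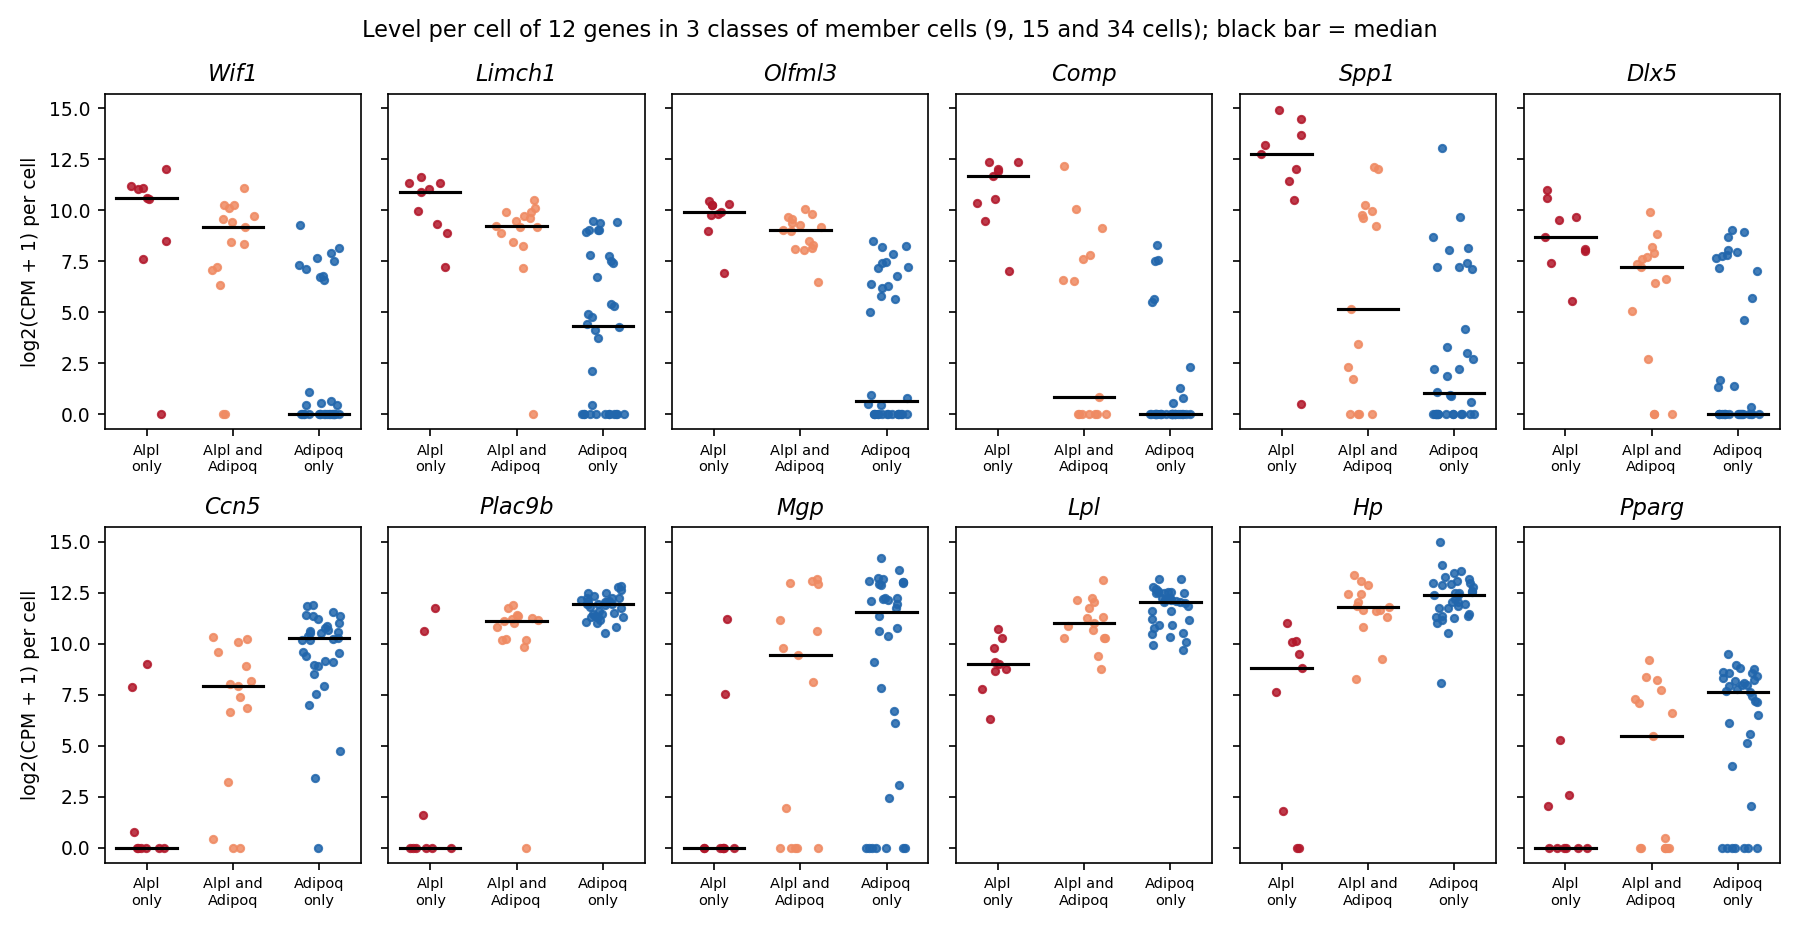
Level of 12 genes in each member cell as log2(CPM + 1), by class: Alpl only (9 cells), Alpl and Adipoq (15) and Adipoq only (34); bars are medians. Wif1, Limch1 and Olfml3 are high in both Alpl classes, Comp and Spp1 mainly in the Alpl-only cells, and Ccn5, Plac9b, Mgp and Pparg have a median of 0 in the Alpl-only cells.

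The bone genes split into a part that went with Alpl and a part that did not. Of 24 osteolineage genes listed, 19 were measured. On the Alpl side 9 were called higher and 0 lower, beside 3.70% and 3.63% of all measured genes. Bglap, Bglap2 and Bglap3, near-identical copies, are counted separately among the 9. The list's median log2 ratio was 0.85 against 0.03 for all genes. The plate medians were 0.72, 2.05, 3.37 and 1.36 for CD61- plates 1 and 2 and CD61+ plates 1 and 2. The rule gene Alpl is left out of the list. Among the 9 genes called higher were Sp7, Dlx5, Spp1, Bglap, Bglap2, Bglap3, Pth1r and Mmp13.

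Among the transcription factors, Dlx5, a homeobox activator of osteoblast genes, had a median of 201 CPM (0 to 2052) on the Alpl side and 0 (0 to 518) on the Adipoq side, and its summed level was 5.01-fold higher. Sp7 (osterix, chr15:102356606-102367182), which commits cells to the osteoblast lineage, was counted in 16 of 24 Alpl-side cells and 3 of 34 Adipoq-side cells. Its median was 68.8 CPM against 0, and its ratio of 15.5 became 38.6 without 1 Adipoq-side cell. Runx2, the master regulator of osteoblasts, was not called. Its summed level was 180 CPM on the Alpl side and 196 on the Adipoq side, with medians of 140 (0 to 795) and 81.9 (0 to 1847). Within each of the 4 plates it was higher on the Alpl side, with log2 ratios of 0.02, 0.43, 0.43 and 1.46, and without the 3 Adipoq-side cells of the VCAM1+ gate the log2 ratio of the sums turned from -0.13 to 0.69.

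The receptor and enzyme genes Pth1r and Mmp13 were present on both sides and higher with Alpl. Pth1r, the receptor for parathyroid hormone, was counted in all 24 Alpl-side cells and 23 of 34 Adipoq-side cells, with medians of 378 CPM (11.98 to 2143) and 61.4 (0 to 481). Mmp13, a collagenase of bone remodelling, had medians of 639 (0 to 5295) and 104 CPM (0 to 1729). Their summed levels were 3.36-fold and 4.13-fold higher.

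Spp1 and the osteocalcin genes mark mature osteoblasts. Spp1, which encodes the mineral-binding protein osteopontin (chr5:104435118-104441050), had a median of 929 CPM (0 to 30395) on the Alpl side and 1.02 (0 to 8477) on the Adipoq side. In the Alpl-only cells the median was 6878 CPM, and in the cells with both genes 34.6. Its summed ratio of 10.9 ran from 7.07 to 46.1 when 1 cell was left out, since 1 Adipoq-side cell held 77.1% of that side's Spp1. The osteocalcin genes were carried by few cells: Bglap was counted in 8 Alpl-side cells and 1 Adipoq-side cell, Bglap2 in 9 and 1, and Bglap3 in 11 and 0. The highest levels were 5501, 14408 and 417 CPM on the Alpl side and 510, 3.497 and 0 on the Adipoq side. These 3 osteocalcin genes are near-identical copies between which the estimated counts may be split, so the division among them is uncertain.

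The promoters of Bglap and Spp1 are shown because both genes were called higher, while the mRNA of Runx2, whose protein binds the RUNX motif, was not. The letters are the 250 bases before each gene's start in RefSeq's GRCm38.p6 table, 5′ to 3′ on the gene's strand, with the RUNX motif ACCACA in capitals; the search took this motif on either strand, where it reads TGTGGT. The Bglap stretch is chr3:88384467-88384716, minus strand, and the Spp1 stretch is chr5:104434861-104435110, plus strand, the first of its 2 entries.
Bglap: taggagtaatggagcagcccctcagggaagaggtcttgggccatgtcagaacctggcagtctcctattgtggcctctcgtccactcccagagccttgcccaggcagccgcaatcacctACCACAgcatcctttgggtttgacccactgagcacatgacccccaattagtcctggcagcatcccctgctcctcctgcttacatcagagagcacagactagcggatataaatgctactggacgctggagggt
Spp1: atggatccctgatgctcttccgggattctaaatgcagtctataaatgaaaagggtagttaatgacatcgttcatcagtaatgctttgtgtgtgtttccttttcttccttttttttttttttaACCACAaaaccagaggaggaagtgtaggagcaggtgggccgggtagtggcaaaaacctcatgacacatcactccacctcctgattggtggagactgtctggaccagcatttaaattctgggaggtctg
Each stretch held the motif once, beginning 132 bases before the start in Bglap and 128 bases before it in Spp1. Over the same window, searched on both strands, the motif was in 14.045% of all 32851 promoters, 10.7% of promoters of measured genes, 11.9% of promoters of genes called higher and 7.80% of those called lower. Of the 479 genes called higher, 342 had an entry in the table, and of the 470 called lower, 342. A match of 6 letters describes the sequence and shows no binding.

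The main structural genes of bone did not go with Alpl. Ibsp, bone sialoprotein, was abundant on both sides, with medians of 3178 CPM (84.9 to 10005) and 4106 (0 to 11881). Col1a1 had summed levels of 133 and 101 CPM, Col1a2 of 503 and 583, and Sparc of 5502 and 4605. None of these was called in either direction. Tnfsf11, which encodes the osteoclast factor RANKL, was at 51.0 and 86.8 CPM.

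A list of 12 genes known as osteo-CAR markers, 10 of them measured, had a median log2 ratio of 3.11, with plate medians of 1.53, 3.58, 4.38 and 2.66. It was put together with earlier results of these data known, so its direction is not independent evidence. Wif1, Limch1, Cldn10, Kcnk2 and Slc20a2 were called higher and 0 genes lower, beside 3.70% and 3.63% of all measured genes. Kcnk2, a potassium channel, had a median of 98.5 CPM (0 to 810) against 0 (0 to 138), and Slc20a2, a phosphate transporter, one of 33.2 (0 to 396) against 0 (0 to 61.4). The ratio of 22.6 for Slc20a2 became 42.7 without 1 cell. On CD61- plate 1 Slc20a2 was at only 0.0628 and 0.0362 CPM, at or under 3 counts on both sides. Its direction on that plate, which the call needed, thus rests on hardly any counts. Postn, periostin, was counted in 6 Alpl-side cells and 0 Adipoq-side cells but had no count on CD61+ plate 1, and was not called. Cd200 mRNA, also on the list, was at 238 and 282 CPM in the sums, but higher on the Alpl side on 3 of 4 plates.

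Within the Alpl side, levels of several genes moved with Alpl itself. Over the 24 cells, Spearman's rho with Alpl was 0.73 for Spp1, 0.71 for Comp, 0.68 for Dlx5, 0.55 for Wif1 and 0.47 for Runx2. It was -0.79 for Ccn5, -0.73 for Mgp, -0.61 for Lpl and -0.60 for Lepr. It was weaker for Limch1 (0.37), Sp7 (0.28) and Kitl (-0.28). Over the 15 cells with both genes, it was 0.56 for Spp1, 0.58 for Comp, 0.65 for Dlx5 and 0.63 for Wif1. For Runx2 it was 0.74, for Sp7 0.76 and for Limch1 0.00. Over the same 15 cells it was -0.76 for Ccn5, -0.68 for Mgp, -0.34 for Lpl, -0.75 for Lepr and -0.41 for Kitl. These cells share 4 plates, and a gene's level is a share of each cell's own total, so the values are descriptions over cells. Alpl's rho with total counts was -0.05 and with the number of genes -0.32 over the 24 cells.

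The 14 genes named as lower on the Alpl side were Plac9a, Ccn5, Plac9b, Prelp, Cyb5a, Apod, Mgst1, P2ry14, Angptl1, Mgp, Rarres2, Il1rn, Prss23 and Hp. Ccn5, a matricellular protein (chr2:163820861-163833146), had a median of 1234 CPM (0 to 3827) on the Adipoq side and 106 (0 to 1285) on the Alpl side. It was 5.58-fold higher on the Adipoq side in sum (5.48 to 5.67), and 23 of 24 Alpl-side cells lay under the Adipoq-side median. The summed levels were 377 against 2024 CPM and 219 against 1585 on CD61- plates 1 and 2, and 273 against 383 and 201 against 1003 on CD61+ plates 1 and 2, so CD61+ plate 1 gave the smallest gap.

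Plac9a and Plac9b, 2 copies of a small secreted protein gene on chromosome 14, were both lower. Plac9b was counted in all 34 Adipoq-side cells (1489 to 7234 CPM, median 3901) and in 17 Alpl-side cells (0 to 3752, median 1375). Every Alpl-side cell lay under the Adipoq-side median, and 19 Adipoq-side cells lay above every Alpl-side cell. Plac9a had a median of 878 CPM (0 to 3837) on the Adipoq side and 0 (0 to 1178) on the Alpl side. In the 9 Alpl-only cells both medians were 0. Reads of these near-identical copies may be split between them, so their separate levels are uncertain.

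Mgst1, a glutathione transferase of membranes, was in every Adipoq-side cell (64.5 to 4498 CPM, median 1681) and lower on the Alpl side (0 to 1313, median 402). Rarres2, which encodes the adipokine chemerin, had medians of 2187 (409 to 7526) and 634 CPM (0 to 3040). Mgp, matrix Gla protein, an inhibitor of calcification (chr6:136872435-136875823), had medians of 3053 (0 to 18538) and 1.40 CPM (0 to 9155). In the summed counts these 3 genes were 3.23-fold, 2.75-fold and 2.43-fold higher on the Adipoq side. The ranges overlapped in each case.

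Prelp, a small proteoglycan, was counted in 33 Adipoq-side and 10 Alpl-side cells. P2ry14, a receptor for nucleotide sugars, was counted in 25 and 4 cells, Angptl1, an angiopoietin-like protein, in 26 and 5, and Apod, a lipid carrier, in 24 and 3. None of the 9 Alpl-only cells had a count of P2ry14, Angptl1 or Apod. Their ratios rested on few cells of the Alpl side: without 1 such cell, the Adipoq side's excess went from 17.0-fold to 6292-fold for Apod, from 5.55-fold to 11.7-fold for P2ry14 and from 9.58-fold to 20.8-fold for Angptl1. Cyb5a, an electron carrier, Il1rn, the interleukin-1 receptor antagonist, and Prss23, a secreted protease, were 2.51-fold, 2.34-fold and 2.74-fold higher on the Adipoq side; Il1rn was 1.76-fold higher without 1 cell.

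**Figure D3:**
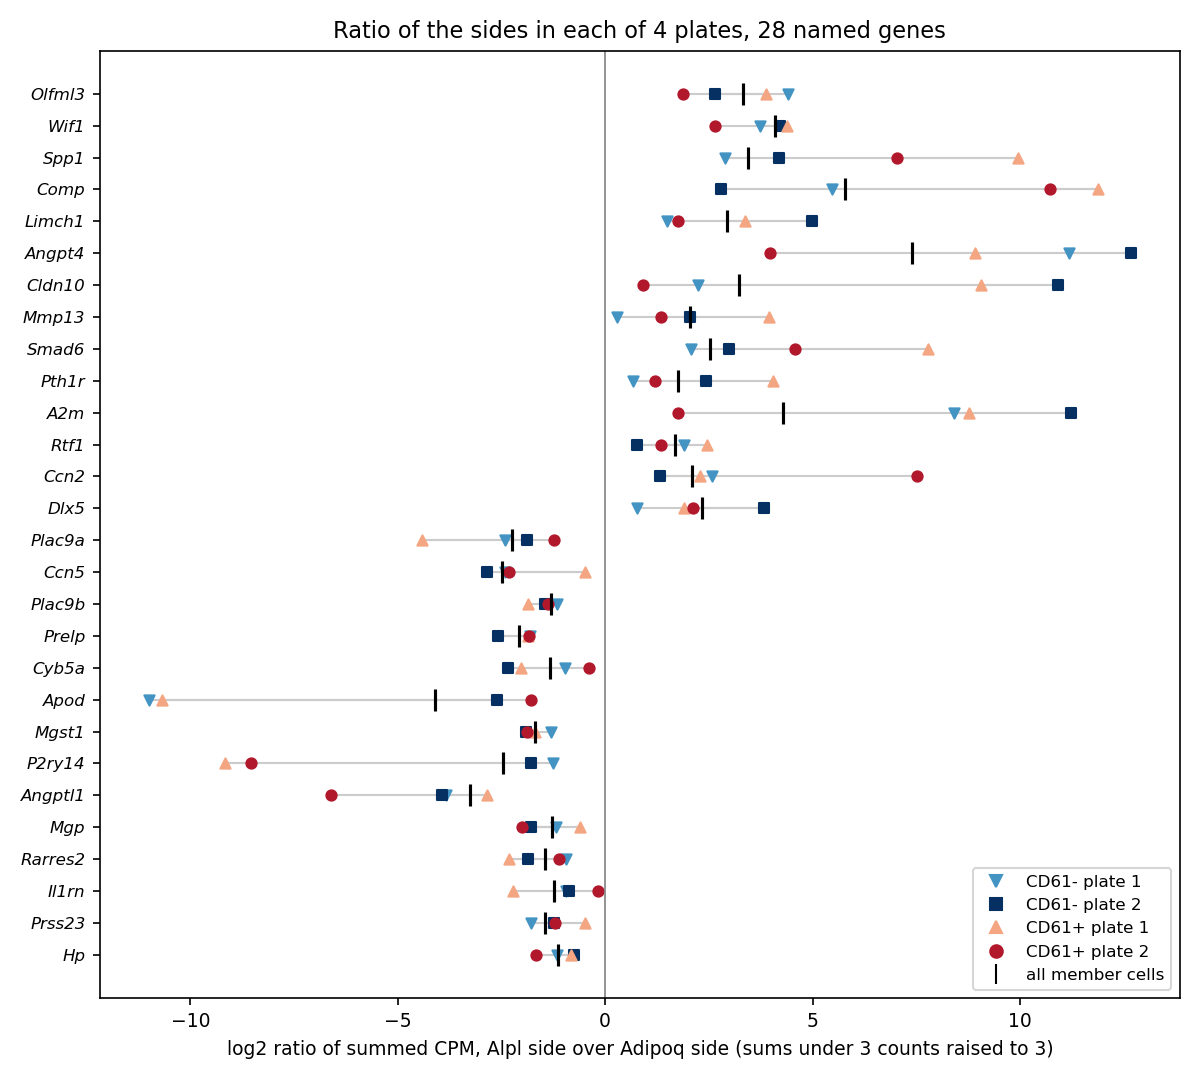
The log2 ratio of summed CPM, Alpl side over Adipoq side, for the 28 named genes (rows) within each of 4 plates (symbols) and over all members (black bars); sums under 3 counts were raised to 3. The plate values of each gene lie on 1 side of 0, as the call rule required, with the widest spread for genes near 0 on one side, such as Angpt4, Comp and Apod.

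The adipogenic genes other than Adipoq were lower on the Alpl side in part. Of 20 genes listed, 15 were measured, with a median log2 ratio of -0.52. Called lower were 5 (Lpl, Pparg, Cebpb, Hp and Acsl1) and higher 0, beside 3.63% and 3.70% of all measured genes. The plate medians were -0.91, -0.84, -0.82 and -0.85, all below the median over all members. Genes at or under 3 counts on both sides of a plate drop out of that plate's median. Single genes could vary more between plates, such as Plin2, with log2 ratios of 0.55 and 5.11 on CD61- plates 1 and 2 and -0.83 and 3.12 on CD61+ plates 1 and 2. Lpl, the lipase that frees fatty acids from lipoproteins (chr8:68880491-68907448), was counted in every member cell, with medians of 4285 CPM (823 to 9145) on the Adipoq side and 1248 (79.3 to 8985) on the Alpl side. Pparg, the receptor that drives fat cell formation (chr6:115360951-115490399), had medians of 200 CPM (0 to 715) and 0.180 (0 to 586). It was counted in 27 of 34 and 12 of 24 cells.

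Hp, haptoglobin (chr8:109575128-109579172), had medians of 5348 CPM (264 to 32144) and 2316 (0 to 10524), and its summed ratio of 2.20 fell to 1.92 without 1 cell. Cebpb, an early adipogenic factor, was 6.57-fold higher on the Adipoq side in sum, at 288 against 43.8 CPM. Its medians were only 23.2 and 0.636 CPM, and leaving out 1 cell gave 4.66-fold to 10.1-fold. The gap lay mainly on CD61- plates 1 and 2, at 155 against 28.5 and 662 against 136 CPM. On CD61+ plates 1 and 2 Cebpb was low on both sides, at 5.19 against 5.03 and 13.1 against 5.83 CPM. Acsl1, which activates fatty acids, was called at low levels, at 24.0 and 7.82 CPM, with 85.2% of the Alpl side's counts in 1 cell. Fabp4, a fatty acid carrier of fat cells, was counted in 7 Adipoq-side cells and 0 Alpl-side cells, and was not called because CD61+ plate 2 had no count on either side. Cebpa (172 and 164 CPM on the Alpl and Adipoq sides), Zfp423 (126 and 125) and Apoe (5215 and 4590) did not separate the sides.

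A list of 11 measured adipo-CAR genes, compiled with results of these cells known, had a median of -0.48. It gave 5 lower calls (Ccn5, Plac9a, Plac9b, Mgp and Gdpd2) and 0 higher calls, beside 3.63% and 3.70% of all measured genes. The near-identical copies Plac9a and Plac9b are counted separately. Gdpd2, a glycerophosphodiesterase, had medians of 1392 CPM (7.65 to 3957) on the Adipoq side and 494 (9.73 to 1921) on the Alpl side. The other 6 genes were not called. Esm1, Pappa and Serping1 had log2 ratios of -0.48, -0.34 and -0.42, and Fbln5, Gas6 and Arrdc4 of 0.22, 0.19 and 0.33.

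The cells with both genes held an intermediate place in these lists. Against the Adipoq side, the osteolineage median was 0.25 for the 15 cells with both genes and 1.69 for the 9 Alpl-only cells. The adipogenic median was -0.44 and -1.74, and the adipo-CAR median -0.52 and -1.53. The osteo-CAR median was already 2.34 in the cells with both genes, next to 3.32 in the Alpl-only cells. Since all of these classes were cut on Alpl and Adipoq, the order describes the cells and was not tested.

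**Figure D4:**
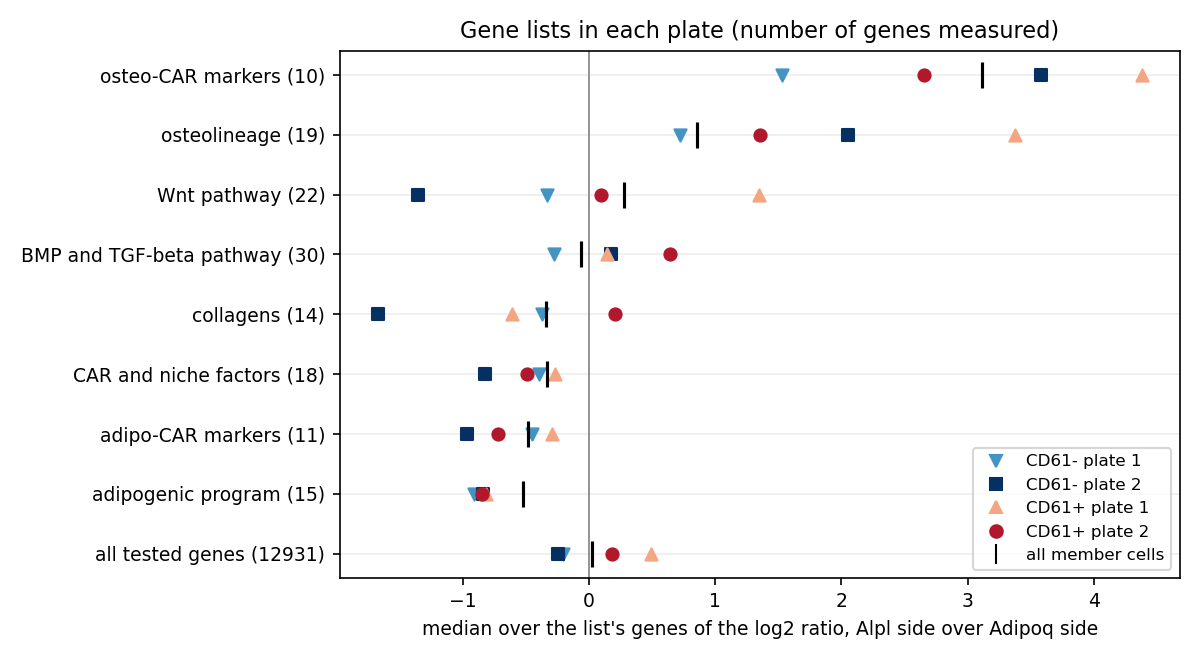
Median log2 ratio over the genes of each list, Alpl side over Adipoq side, within each plate (symbols) and over all members (black bars), with the number of genes measured in brackets. The osteo-CAR and osteolineage medians are above 0 and the niche, adipo-CAR and adipogenic medians below 0 on all 4 plates, while the Wnt, BMP and collagen medians lie on both sides of 0.

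The niche genes for which CAR cells are known were present on both sides. Of 18 measured, 2 were called lower (Foxc1 and Il34) and 0 higher, beside 3.63% and 3.70% of all measured genes. The median log2 ratio was -0.33, with -0.39, -0.82, -0.27 and -0.49 on the plates. Kitl, stem cell factor, was counted in all 58 members, with medians of 932 CPM (40.8 to 5939) on the Alpl side and 2094 (348 to 3868) on the Adipoq side. Lepr, the leptin receptor that marks marrow stroma, had medians of 308 (54.7 to 1663) and 765 CPM (132 to 2026). Their summed levels were 1.68-fold and 1.86-fold higher on the Adipoq side, short of the 2-fold needed for a call.

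Foxc1, a forkhead factor that maintains CAR cells, had medians of 28.6 CPM (0 to 116) on the Alpl side and 64.9 (0 to 353) on the Adipoq side. Il34, a ligand of the macrophage receptor CSF1R, had medians of 131 (0 to 943) and 427 CPM (0 to 2074). Csf1 (447 and 510 CPM in the sums), Il7 (119 and 144), Ebf1 (306 and 339) and Igf1 (464 and 496) were close on the 2 sides. Cxcl14, a chemokine, was the other way round, at 2164 CPM on the Alpl side and 1434 on the Adipoq side, and was not called. In the marker list for CAR cells, the summed level of Lepr, Kitl, Foxc1 and Ebf3 ran from 203 to 7472 CPM on the Alpl side and from 890 to 5340 on the Adipoq side.

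In the Wnt list, 22 genes were measured, and the list's median log2 ratio was 0.28. Called higher were 3 and lower 1, beside 3.70% and 3.63% of all measured genes. The few calls in this list and the BMP list are not read as results of the lists. Sfrp4 was at 799 CPM on the Alpl side and 1824 on the Adipoq side, while Sfrp1 was at 86.1 and 23.4, and the receptor Lrp4 at 34.5 and 2.12. Sfrp2 was called higher, at 155 and 60.9 CPM, but 49.7% of its Alpl-side counts came from 1 cell, its ratio of 2.55 fell to 1.35 without that cell, and its log2 ratio turned to -0.93 when the cells with both genes were left out. In the BMP and TGF-beta list, 30 genes were measured; Smad6, Nog and Bambi were called higher and 0 genes lower. All 3 encode inhibitors of BMP signalling, but other antagonists were not called and had lower summed levels on the Alpl side on all 4 plates: Chrdl1 was at 708 CPM on the Alpl side and 1359 on the Adipoq side, and Fst, follistatin, at 218 and 360. The list's median log2 ratio was -0.06. Nog, which encodes noggin, was counted in 10 of 24 Alpl-side cells and 0 of 34 Adipoq-side cells, at 46.9 CPM in the sum, and Bambi was at 26.2 and 9.29 CPM. Lrp4, Sfrp1, Nog and Bambi were singled out after their values were seen.

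In the Notch list of 8 measured genes, the target Hey1 was higher on the Alpl side (68.2 and 18.7 CPM), and the targets Hes1 (69.4 and 189) and Heyl (28.1 and 61.6) were lower. Over all measured genes 3.70% were called higher and 3.63% lower. The few calls in the Notch, IGF and collagen lists are not read as results of the lists. Hey1's ratio of 3.65 became 7.94 without 1 Adipoq-side cell. Of 8 genes of the IGF system, Igfbp3 was called lower, at 43.7 and 170 CPM, and its 3.89-fold excess on the Adipoq side became 5.98-fold without 1 Alpl-side cell. Igfbp4, a binding protein of IGFs, had medians of 9874 CPM (3677 to 21734) and 4857 (1025 to 16197), a 1.96-fold difference seen on all 4 plates that missed the 2-fold rule. Of 14 collagens measured, Col6a1 (172 and 352 CPM), Col5a1 (16.5 and 43.5) and Col16a1 (24.1 and 55.3) were called lower; Col5a1 and Col16a1 were singled out after their values were seen. Col8a1 had medians of 482 (88.6 to 1325) and 93.1 CPM (0 to 743), 4.13-fold higher in sum on the Alpl side, but not on CD61+ plate 2, where it was at 455 against 473 CPM.

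Of 23 immediate early genes, Dusp1 (216 and 790 CPM) and Klf2 (11.7 and 85.7) were called lower and 0 higher. Over all measured genes the shares were 3.63% and 3.70%, so the few calls in these short lists are not read as results of the lists. Fos was at 7425 and 7517 CPM. Of 14 glycolysis genes, Gpi1 was called higher and Aldoa lower, and of 13 respiratory chain genes Cox5a was called lower. Dusp1, Klf2, Gpi1 and Cox5a were likewise singled out afterwards. In the lists of interferon and MHC class I genes (13 measured), secretory pathway genes (18) and cell cycle genes (8), 0 were called. The median log2 ratio was -0.01 for each of the first 2 lists and 2.73 for the cell cycle list. The cell cycle plate medians were -0.48 and -0.11 on CD61- plates 1 and 2 and 0.25 and 4.06 on CD61+ plates 1 and 2. In that list 1 cell held 98.3% of the Alpl side's Mcm5 counts, while for Pcna the top cell held 21.7%.

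The antibody signals recorded at the sort gave a readout that the rule did not use. CD200, a surface glycoprotein that was not part of the gate, had the most Alpl-side cells above the highest Adipoq-side cell among the 11 channels. Its intensity ran from 289 to 4322 on the Alpl side with a median of 832, and from -16.0 to 883 on the Adipoq side with a median of 272. Of the 24 Alpl-side cells, 12 lay above every Adipoq-side cell and 21 above the Adipoq side's upper quartile. The median was higher on the Alpl side on all 4 plates, by 304 and 136 on CD61- plates 1 and 2 and by 2455 and 734 on CD61+ plates 1 and 2. Within the CD61+ gate the medians were 1355 and 166, and within the CD61- gate 452 and 278. The Alpl-only cells had a median of 2128 and the cells with both genes 514.

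CD51, the integrin alpha-V chain, was also not gated on and had medians of 294 (92.0 to 1027) and 125 (1.00 to 1083), higher on the Alpl side on all 4 plates. Its ranges overlapped fully. CD45, which was gated on as negative, had medians of 650 (15.0 to 1524) and 224 (-11.0 to 1541), also higher on all 4 plates. Per the channel names, CD45, CD200 and CD51 were read with the same 640 nm laser. CD45 and CD200 had a Spearman's rho of 0.64 within the Alpl side and 0.64 within the Adipoq side, and CD45 and CD51 one of 0.50 and 0.73. Whether the signals were compensated for spill-over was not given in the sources used here, and its part in these differences was not tested. Ptprc, the gene of CD45, was at 0.0724 and 0.118 CPM, so its mRNA was nearly absent on both sides.

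Of 6 measured mRNAs of the stained proteins, 0 were called, beside 3.70% called higher and 3.63% lower of all measured genes. With so few genes this count is not read as a result. Cd200 (chr16:45382135-45409053) had medians of 189 CPM (0 to 1268) on the Alpl side and 116 (0 to 1862) on the Adipoq side and was not called. By plate, Cd200 mRNA had log2 ratios of -1.63 and 1.43 on CD61- plates 1 and 2 and 2.54 and 2.68 on CD61+ plates 1 and 2. Its Spearman's rho with CD200 intensity was 0.50 over the 24 Alpl-side cells and 0.07 over the 34 Adipoq-side cells. Itgav, the gene of CD51 (chr2:83724397-83806916), was at 236 and 188 CPM. Vcam1 mRNA was 1.54-fold higher on the Adipoq side, at 1329 against 862 CPM, whereas VCAM1 intensity had medians of 539 on the Adipoq side and 811 on the Alpl side and was higher on the Alpl side on 3 of 4 plates. CD61 intensity had medians of 1602 and 1133 on the Alpl and Adipoq sides, which the gates themselves set in part. Forward scatter area, a measure of size, had medians of 135500 and 115120 but differed in opposite directions on the plates, higher on 2 and lower on 2. The dye and Ter119/CD41 channels likewise had no common direction over the plates.

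**Figure D5:**
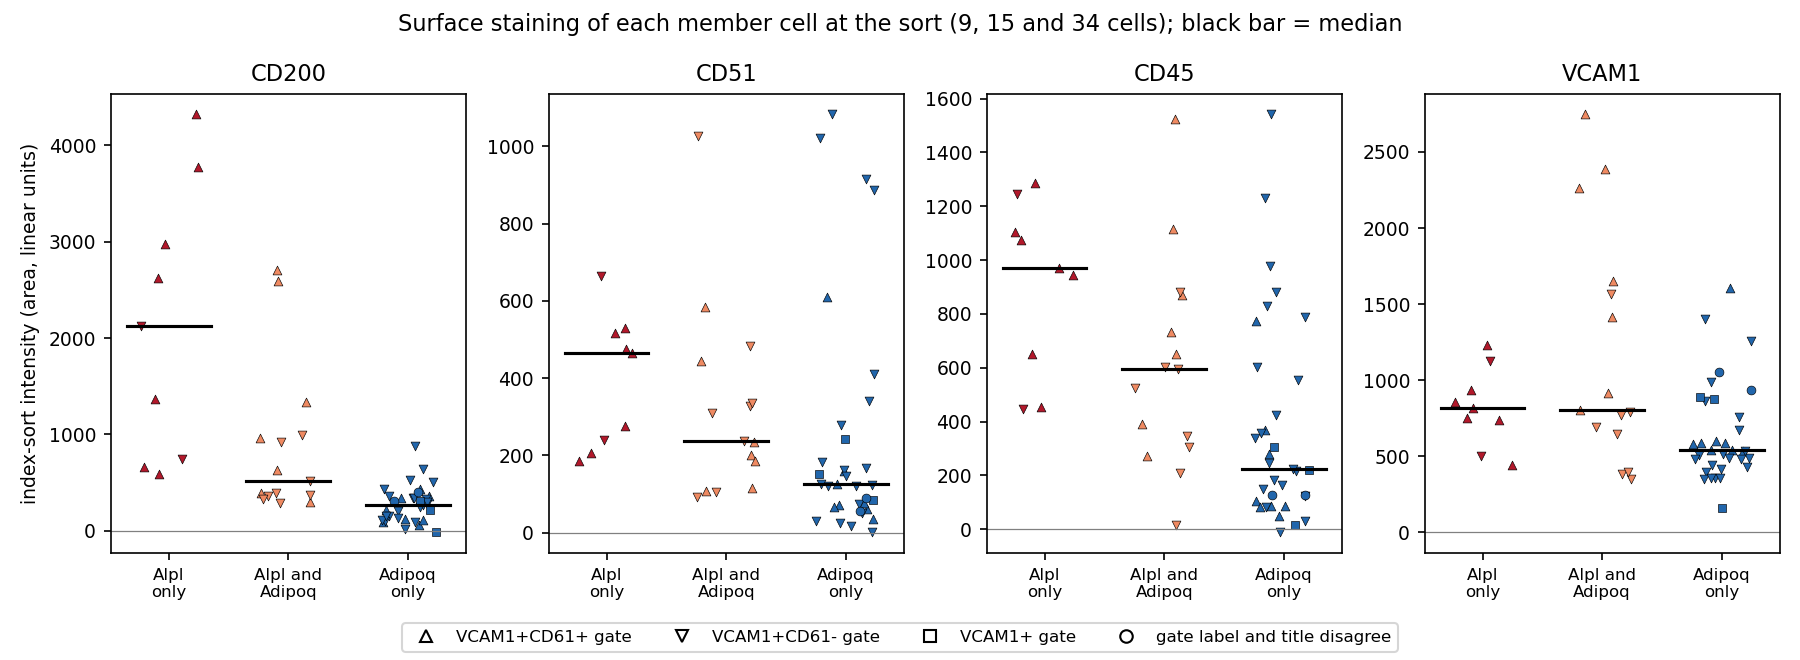
Index-sort intensity (area, linear units) of CD200, CD51, CD45 and VCAM1 in each member cell by class; shape is the gate and bars are medians. For CD200, 12 of 24 cells of the 2 Alpl classes lie above all 34 Adipoq-only cells, and the ranges of the other 3 channels overlap.

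Markers of other cell types were at 0 in part and moved with the sides in part. Cdh5, Emcn, Ly6c1 and Flt4 of endothelial cells, S100a4, Dpt and Clec3b of fibroblasts, Laptm5 and Spi1 of blood cells and Lyz2 of macrophages were at 0 in all 58 members. Other markers of the same lists were not. The summed endothelial markers had a count in 8 Alpl-side and 11 Adipoq-side cells, reaching 61.2 and 860 CPM. The summed general blood cell markers had a count in 19 and 22 cells, reaching 380 and 159 CPM. Of 3 measurable chondrocyte markers, Comp and Sox9 were called higher on the Alpl side, beside 3.70% of all measured genes. The list's summed level ran from 0 to 5341 CPM on the Alpl side and from 0 to 311 on the Adipoq side. The summed fibroblast markers ran from 2.29 to 2872 and from 0 to 3447 CPM, with Fn1 called higher; their medians were 259 and 114 CPM. The 5 erythroid markers in the table had a count in 11 of 24 Alpl-side and 6 of 34 Adipoq-side cells, reaching 11258 and 1381 CPM. Of these markers Hba-a1 and Hba-a2, near-identical copies, were called higher on the Alpl side, at 102 against 13.2 CPM and 184 against 23.9, and Hbb-bs was counted in 7 Alpl-side cells and 0 Adipoq-side cells but not called. Schwann cell markers, with a count in 19 Alpl-side and 13 Adipoq-side cells, had summed medians of 179 and 0 CPM, and osteoclast markers of 151 and 46.9. Neither list had a call, and macrophage markers had a count in 1 and 3 cells. Depth, the gate and these other markers moved with the sides to this extent, and their part in the results was not tested.

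Some cells outside the comparison also carried Alpl. Of the 30 cells under the Cxcl12 threshold, 14 had Alpl at or over 50 CPM. Spp1 had a median of 126400 CPM in these 14 cells (403 to 330810), against 929 on the Alpl side. Lepr had a median of 25.7 CPM (0 to 361) and Kitl of 0 (0 to 811), against 308 and 932. Wif1, at a median of 510 CPM (0 to 2118), and Sp7, at 103 (0 to 275), lay within the Alpl side's range.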

How the data were processed

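The data were 91 mouse marrow cells, each with 1 Smart-seq2 library and an entry in the table of sort signals. The tools named by the submitters' processing notes are kallisto 0.43.0 and R 3.5.1, with the build mm10 (annotation and compensation: not given in the sources used here). Deposited expected counts (estimated counts per gene, 16580 genes) are not normalised, and all are whole numbers. The deposited number of reads, a count per cell from the authors, equals the column sum in all 91 cells. Index values are deposited intensity values on a linear scale. In the index table, 36 columns were not used.

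The members, thresholds and gene lists were chosen with earlier results of these data known. Counts were summed per side and put on the CPM scale; sums under 3 counts were raised to 3 before a ratio. No test was run, since no animal is named and the sides were cut on measured values; intervals (exact binomial split of 2 sums, Clopper-Pearson shares, 95%) cover counting error only, and reads are not independent molecules. Named genes were the 14 per direction with the largest difference in mean log2(CPM + 10) among called genes with a count in at least 50% of the higher side's cells and 20 CPM in its sum, without mitochondrial, ribosomal, predicted and Rik genes; to these were added the most abundant genes of each list and the genes of the stained proteins. Of these 28 genes, 24 were also chosen with a pseudocount of 1. No doublet caller was run and no cell removed; forward scatter width had medians of 84262 and 81780 on the Alpl and Adipoq sides. Promoters came from RefSeq (GRCm38.p6) and positions from GENCODE vM21. TMM sizes came from edgeR 4.0.16 and size factors from DESeq2 1.42.0, as alternatives only; Python 3.11.15 with scipy 1.17.1 did the rest. The code was tested on simulated data: 2.50% of unchanged genes were called higher and 3.12% lower. A good part of the genes with a change put in were missed. 1 gene of the lists is not reported here.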

Additional observations from a re-analysis of the deposited data

Results flagged for a closer look

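The median difference in VCAM1 intensity between the sides, Alpl side minus Adipoq side, was -51.0 on CD61- plate 1, far from the other 3 plates, where it was 417.5, 338.5 and 372.5. The log2 ratio of Prelp on CD61- plate 2 was -2.58, lower than on the other 3 plates. These 2 came from 44 sets of 4 plates looked at, and chance flags about 1 in 20. For CD71 intensity, the median difference was 48.0 and 139 on CD61- plates 1 and 2 and -2 and -46 on CD61+ plates 1 and 2. On CD61+ plate 1 the medians were nearly equal, at 462 and 464, so only CD61+ plate 2 clearly went the other way. The difference between the gates was not tested.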

How the results depend on the processing

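The calls need all plates with both sides to have 1 direction, so counts of calls grow where an alternative leaves fewer plates. With the cells positive for both genes left out (2 such plates), 1064 genes were higher and 1430 lower. With cells of the CD61+ gate alone the counts were 2135 and 1026, and with cells of the CD61- gate alone 1113 and 1996. Leaving out 1 plate at a time gave 524 to 998 higher and 467 to 1094 lower. An Alpl threshold of 20 CPM gave 236 lower. The count of higher genes stayed within 1.5 times of 479, and that of lower genes of 470, under all other alternatives run: TMM sizes (533 and 439), DESeq2 size factors (450 and 518), mean CPM, no filter, thinning to 500000 counts, the other thresholds, and leaving out cells with disagreeing labels, the VCAM1+ gate or, added after seeing the data, cells with under 3000 genes.

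The adipogenic median of -0.52 was -0.48 with TMM sizes, -0.62 with DESeq2 size factors, -0.64 by mean CPM, -0.81 after thinning, -0.72 at an Alpl threshold of 200 CPM, -1.74 without the cells positive for both genes, -0.64 without the VCAM1+ gate and -0.75 in the CD61+ gate alone; over left-out plates it ran from -1.06 to -0.51. The niche median was -0.57 at 200 CPM and -0.76 without the cells positive for both genes, where the adipo-CAR median was -1.53 and the CD200 median difference 1856.5. Over left-out plates the osteolineage median ran from 0.68 to 1.23, the osteo-CAR median from 2.65 to 3.32 and the niche median from -0.53 to -0.35. The adipo-CAR median ran from -0.62 to -0.43 and the CD200 median difference from 305.5 to 869. The CD61+ share ran from 41.2% to 77.8%. The Alpl-side cells of each plate came from 1 gate, so the plate layout sets that range and it shows no stability. Sfrp2 turned to -0.80 at an Alpl threshold of 200 CPM and to -0.93 without the cells positive for both genes; the cause was not tested. Of 560 values of the 28 genes named by the rule, 531 kept their size within the spread over plates, 29 moved and 0 reversed. No paired analysis was possible because the labels pair no cell of 1 side with a cell of the other; the sides were compared within plates instead. With 9 to 34 cells a class and single cells holding much of a low gene's counts, folds of genes near 0 on 1 side are rough.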
